A study of Mus musculus with 2 samples.

Results

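The genes described here encode 7 subunits of the GABA-A receptor, the chloride channel through which GABA inhibits mature neurons. They are the α subunits Gabra2 (ENSMUSG00000000560), Gabra3 (ENSMUSG00000031343), Gabra4 (ENSMUSG00000029211) and Gabra5 (ENSMUSG00000055078), the β subunits Gabrb1 (ENSMUSG00000029212) and Gabrb2 (ENSMUSG00000007653), and the δ subunit Gabrd (ENSMUSG00000029054). They were taken by symbol and are 7 of the 33696 genes counted; each symbol matched 1 row. Levels were followed in single nuclei of the mouse hippocampus at postnatal day 19. The control mice had the genotype Cicflox/flox, with both copies of Cic floxed. The other library, labelled knockout, was made from littermates with the genotype Emx1-Cre; Cicflox/flox. Cic encodes Capicua, a transcriptional repressor, and the controls had its floxed alleles without Cre. Cre driven by Emx1 acts in the dorsal telencephalic lineage, which forms the excitatory neurons and much of the glia of the hippocampus and few of its inhibitory neurons. For each library 1 hippocampus per mouse was taken from 3 mice (2 males, 1 female), and the tissue was pooled, so mice are not separate samples.

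A GABA-A receptor is a ring of subunits, commonly α and β subunits with a γ or a δ subunit. The α subunit sets much of the receptor's pharmacology and position: receptors with α2 or α3 and a γ subunit gather at synapses, receptors with α5 lie largely outside the synapse and are abundant in the hippocampus, and receptors with α4 and δ carry the tonic current of dentate granule cells. Several of the genes sit in clusters. Gabra2, Gabra4 and Gabrb1 share a cluster with Gabrg1 on chromosome 5, Gabra5 lies near Gabrg3 on chromosome 7, Gabrb2 lies near Gabra6 on chromosome 11, Gabra3 is on chromosome X and Gabrd on chromosome 4. In the annotation used for gene order, the starts of Gabra4 and Gabrb1 overlap on opposite strands by 0.221% of Gabra4. How the counting treated strand is not given in the sources used here, so reads of overlapping genes on opposite strands may not be fully separable.

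Among these genes, where counts were enough, Gabra5 had the widest difference between the libraries in the mature and immature granule classes and in CA2 and CA3 classes. In the CA1 class its log2 ratio, labelled knockout over control, was -0.96, close to the -0.94 of Gabra4. The 250 bases before the Gabra5 start are shown, from RefSeq on GRCm38.p6, chr7:57510060-57510309, minus strand, which no annotated exon overlaps in the annotation used. Capitals would mark a Capicua octamer, and there are none.

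Gabra5 upstream: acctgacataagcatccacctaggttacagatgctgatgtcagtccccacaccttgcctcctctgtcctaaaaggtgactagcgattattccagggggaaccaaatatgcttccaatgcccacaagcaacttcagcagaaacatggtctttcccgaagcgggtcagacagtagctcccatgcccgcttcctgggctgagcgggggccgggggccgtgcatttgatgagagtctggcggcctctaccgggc

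The octamers searched were TGAATGAA, TGAATGGA, TCAATGAA and TCAATGGA, on both strands, in windows of 300 bases from 250 before to 50 after a start. They can overlap one another. Of 10 windows that RefSeq lists for 6 of the genes (Gabra2, Gabra3, Gabra4, Gabra5, Gabrb1 and Gabrb2), 0 held one, against 3.84% of all 32851 windows. This says only that these letters are not in these windows.

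The control library held 314453640 UMIs over 25907 barcodes, and the labelled knockout 252995761 over 23207. After filters and removal of called doublets, 21865 and 20531 nuclei were used, with medians of 9790 and 8766 UMIs. The libraries shared 175 barcodes. With 1 library in each group there is no replicate error and no test, so every interval below is a 95% interval of counting error alone and does not cover differences between mice or library preparations. Levels are in CPM, which is a gene's share of all UMIs of a class, times 1000000, and nuclei were put in classes by fixed marker genes, hence the ending "-like".

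Cic itself was not lower in the labelled knockout. It had 9.09 CPM in the control and 12.3 in the labelled knockout in dentate granule-like nuclei, 6.91 and 11.8 in CA3-like nuclei, 6.60 and 12.5 in CA1-like nuclei, and 10.0 in both libraries in inhibitory-like nuclei. The deleted exons are not given in the sources used here, so tags from the 3′ end may lie outside them and do not check the label.

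Dentate granule-like nuclei fell into 2 clusters that differed by library, and this stands beside every value given for that class. One, led by Trpc6, held 3543 control nuclei and 147 of the labelled knockout. The other, led by Bmp6, held 839 and 3176. Markers of immature granule cells were also higher in the class in the labelled knockout, 6 of 7 of them, with a summed level of 104.9 CPM against 170.7. Dcx, a marker of young neurons, went from 25.5 to 53.7 CPM. Of 10 granule markers, 8 were lower and 2 higher in the labelled knockout: Trpc6 was furthest apart, at 374.0 and 117.9 CPM (-1.67), Prox1 had 337.1 and 301.8 (-0.16), and Tdo2 ran the other way, at 14.6 and 27.6 (0.92). Their part in the results was not tested. CA1-like nuclei formed 1 cluster here, but with finer clusters (Leiden resolution 2) they also split by library. One such cluster held 627 control nuclei and 1341 of the labelled knockout; another, of 1093 and 9, went unnamed for having fewer than 10 nuclei in a library, so most control nuclei of the class left that setting, and a cluster of 499 and 449 joined it. The CA1-like log2 ratio under that setting was -0.70 for Gabra5 and -0.85 for Gabra4.

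Across 17 classes the 7 genes had distinct maps, and the plot of levels by class shows them side by side. In the control, Gabra5 was highest in CA2-like (233.5 CPM) and immature dentate granule-like nuclei (219.4 CPM), whose intervals overlapped, followed by CA3-like (198.2), CA1-like (184.9) and dentate granule-like nuclei (161.2). Gabra4 was highest in dentate granule-like nuclei, at 313.5 CPM, and next in radial glia-like nuclei, at 156.9. Gabra3 was highest in MGE inhibitory-like (117.5 CPM) and oligodendrocyte precursor-like nuclei (112.4), with overlapping intervals, and was at 1.51 CPM in dentate granule-like nuclei. Gabrb1 was highest in glia, at 4833 CPM in radial glia-like and 4462 in astrocyte-like nuclei. By class, Gabrb2 led in subicular excitatory-like nuclei (698.4 CPM), then in MGE inhibitory-like nuclei (623.9) and dentate granule-like nuclei (620.1), the last pair with overlapping intervals. Single clusters were higher: 1605 CPM in a CGE inhibitory-like cluster led by Ndnf (54 control nuclei) and 1609 in an unnamed one led by Mctp2. In the labelled knockout MGE inhibitory-like (596.5), CGE inhibitory-like (579.5) and subicular excitatory-like nuclei (576.7) had overlapping intervals. Gabrd was highest in dentate granule-like (23.8 CPM) and MGE inhibitory-like nuclei (19.3), and within the latter in a cluster led by Pvalb (36.0 CPM) rather than one led by Lypd6b (3.22 CPM).

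**Figure D1:**
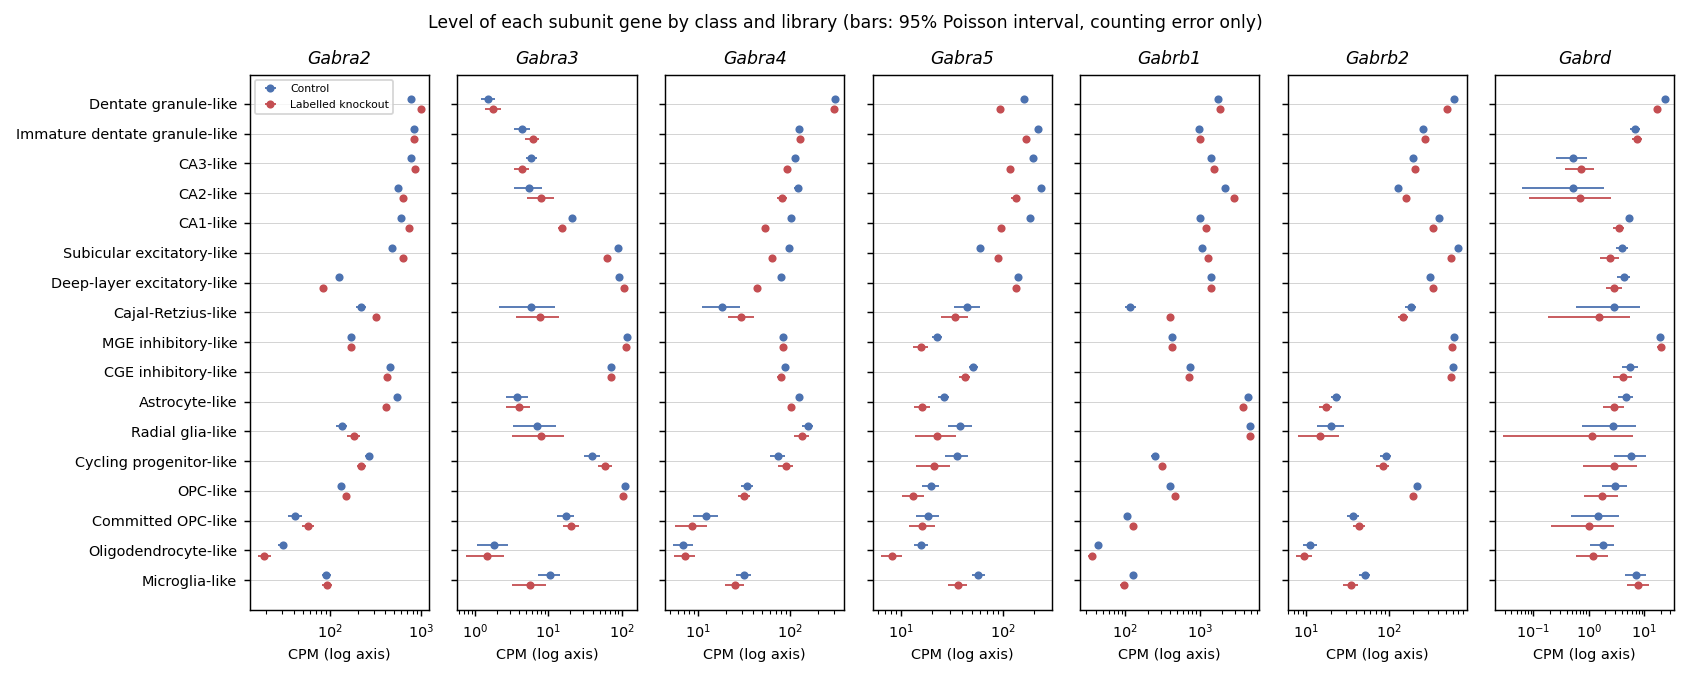
Each panel gives 1 gene on a log axis of CPM, with 1 row per nuclear class, blue points for the control library and red points for the labelled knockout; bars are 95% Poisson intervals. Gabra5 in CA1-like nuclei sits at 184.9 CPM in the control and 95.4 in the labelled knockout, while Gabrb1 in inhibitory classes sits at the same place in both.

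The comparison of the libraries asked how these subunits differ between mice with and without Emx1-Cre on the floxed Cic background. Gabra5 was lower in the labelled knockout in each granule, CA3-like, CA2-like and CA1-like class and higher in subicular excitatory-like nuclei. Gabra4 was lower in CA1-like, subicular excitatory-like and deep-layer excitatory-like nuclei and nearly level in dentate granule-like nuclei. Gabra2 and Gabrb1 were somewhat higher in several pyramidal classes, and in inhibitory-like nuclei none of the 7 differed by 1.5-fold. Many genes were at least as far from 0 as Gabra2: 33.0% in CA1-like, 49.4% in CA3-like, 62.5% in CA2-like and 17.8% in subicular excitatory-like nuclei. For Gabrb1 these shares were 29.5%, 57.0%, 23.7% and 33.0%.

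Counts were enough for a comparison where the library with the higher level had 50 UMIs or more and 10 CPM or more. By that rule, 1 of 6 subunit genes with such counts differed by at least 1.5-fold in dentate granule-like nuclei, where 7.77% of all genes did. In immature dentate granule-like nuclei it was 0 of 5 against 1.52% of all genes, in CA3-like nuclei 1 of 5 against 6.44%, in CA2-like nuclei 1 of 5 against 11.1% and in CA1-like nuclei 2 of 6 against 10.6%. Subicular excitatory-like nuclei had 2 of 6 against 8.22%, deep-layer excitatory-like nuclei 2 of 6 against 4.74%, and Cajal-Retzius-like nuclei 1 of 3 against 9.52%. MGE inhibitory-like nuclei had 0 of 7 against 0.825%, CGE inhibitory-like nuclei 0 of 6 against 1.87%, both together 0 of 7 against 0.502%, and astrocyte-like nuclei 1 of 5 against 2.2%. The gene in astrocyte-like nuclei was Gabra5 (-0.69), whose glial counts are read below as background. At 2-fold, no subunit gene passed in inhibitory-like (0.0342% of all genes), immature dentate granule-like (0.438%), CA3-like (2.02%), dentate granule-like (3.38%) or CA1-like nuclei (4.16%), and 1, Gabrb1, passed in Cajal-Retzius-like nuclei (2.87%). In the granule, CA2-like and CA3-like classes this is at most 1 gene, and in CA1-like nuclei 2 (Gabra4 and Gabra5), among many that differed. With so few subunit genes, the counts do not set them apart from other genes. The median log2 ratio of the subunit genes with enough counts was -0.17 in dentate granule-like nuclei (0.01 over all genes), 0.06 in CA3-like nuclei (0.06) and -0.34 in CA1-like nuclei (0.09).

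**Figure D2:**
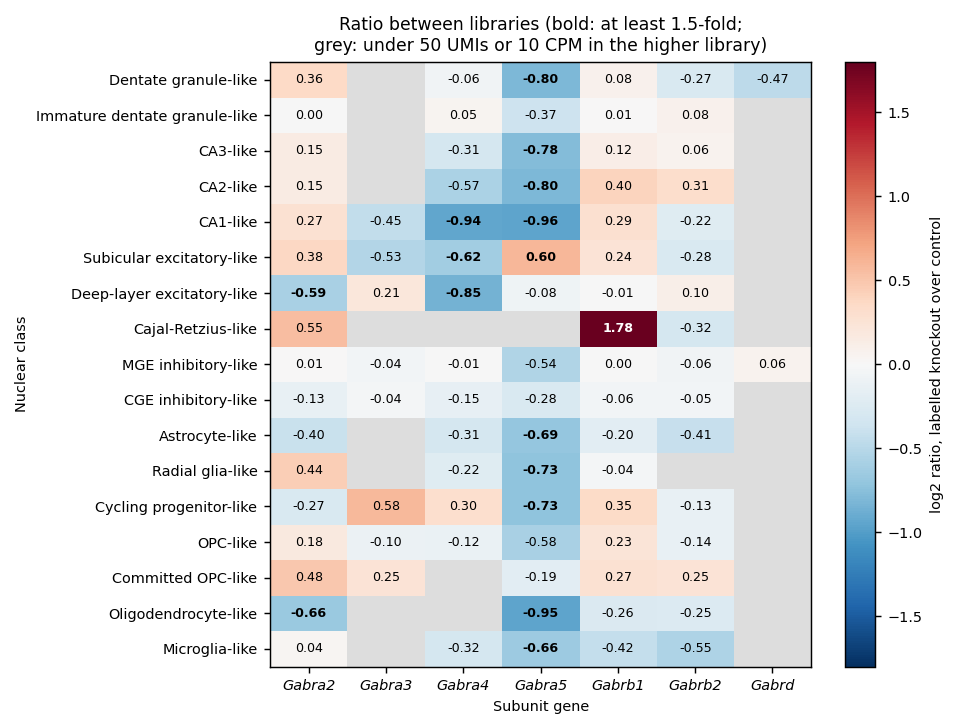
Log2 ratio of the labelled knockout over the control for each subunit gene (columns) in each class (rows), red for higher and blue for lower in the labelled knockout, bold for at least 1.5-fold, grey for genes without enough counts. The Gabra5 column is blue in the granule, CA and glial rows and red in the subicular excitatory-like row (0.60).

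Among the α subunits, Gabra5, whose product forms mostly extrasynaptic receptors in hippocampal pyramidal cells, differed in opposite directions in neighbouring excitatory classes. In CA1-like nuclei it had 184.9 CPM in the control (95% interval 180.3 to 189.7) and 95.4 in the labelled knockout (91.3 to 99.5), a log2 ratio of -0.96 (-1.03 to -0.88). CA3-like nuclei had 198.2 and 115.7 CPM, a log2 ratio of -0.78 (-0.85 to -0.70). The libraries did not overlap within counting error in either class. Markers of other classes differed as well: in CA1-like nuclei, summed immature granule markers were 66.4 and 136.7 CPM (6 of 8 higher in the labelled knockout), subicular markers 52.0 and 114.9 (4 of 6 higher) and deep-layer markers 466.0 and 256.5 (3 of 6 higher). In CA3-like nuclei, summed CA1 markers were 125.5 and 206.0 CPM (7 of 8 higher). Their part was not tested.

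In dentate granule-like nuclei Gabra5 was 161.2 CPM in the control and 92.4 in the labelled knockout, a log2 ratio of -0.80 (-0.86 to -0.75). The gap was there in both granule clusters: 191.9 against 92.2 CPM in the Bmp6 cluster (-1.06) and 154.9 against 96.5 in the Trpc6 cluster (-0.68). It was there in female nuclei, from 1 mouse in each library (172.3 against 86.0 CPM), and in male nuclei, from 2 mice in each (153.3 against 93.3). Of all genes with enough counts in this class, 4.78% had a ratio at least as far from 0. Immature granule-like nuclei had a smaller gap, 219.4 against 169.5 CPM (-0.37), with -0.51 in female and -0.22 in male nuclei. Within that class, a cluster led by Sema3c had 182.3 against 159.7 CPM and one led by Rasef 274.3 against 185.1.

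The share of nuclei with at least 1 Gabra5 UMI was lower as well: after thinning each nucleus to 2000 UMIs it was 26.6% in the control and 15.9% in the labelled knockout for dentate granule-like nuclei, 28.1% and 16.8% for CA1-like nuclei, and 7.61% and 4.08% for microglia-like nuclei, which should lack the gene. Without thinning, 88.4% and 66.0% of CA1-like nuclei had one (median depth 18064 UMIs in the control, 15928 in the labelled knockout), and 10.8% and 5.83% of microglia-like nuclei (2136 and 1718). All CA1-like nuclei were deep enough to be thinned, as were 828 of 1491 control and 515 of 1474 labelled knockout microglia-like nuclei.

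CA2-like nuclei, 162 in the control and 140 in the labelled knockout, had 233.5 and 133.7 CPM of Gabra5 (-0.80, interval -0.98 to -0.63). With nuclei thinned to 2000 UMIs that ratio was -0.28. Other scalings of the libraries, median-of-ratios and TMM, moved all CA2-like ratios by -0.13 and all CA1-like ratios by -0.11 and -0.10, which widens the Gabra5 gap and narrows any higher level in those classes.

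In subicular excitatory-like nuclei Gabra5 ran the other way, with 59.1 CPM in the control (55.2 to 63.2) and 89.4 in the labelled knockout (84.0 to 94.96), a log2 ratio of 0.60. Each of the 2 larger clusters of the class showed it, 49.6 against 86.9 CPM (0.81) in one and 72.4 against 95.9 (0.41) in the other. Female and male nuclei both had it, at 0.46 and 0.65. The size passed 1.5-fold in 9 of 13 alternative settings and kept its sign in all 13; with a cluster of 3 control nuclei and 65 of the labelled knockout put back, it was 0.84. Deep-layer excitatory-like nuclei lay near level, at 141.4 and 133.6 CPM (-0.08), although 1 of their clusters, led by Crybg1, had 97.8 and 73.9 (-0.40). Summed markers of other classes also differed between the libraries in subicular excitatory-like nuclei: granule markers were 296.5 and 423.8 CPM, 5 of 10 higher, deep-layer markers 574.1 and 385.5 CPM, 1 of 6 higher, and astrocyte markers 88.2 and 153.4 CPM, 6 of 8 higher. Their part was not tested.

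Glial values of Gabra5 sat at the level of microglia-like nuclei, which should lack the gene. A microglia-like nucleus had on average 0.128 Gabra5 UMIs in the control and 0.0651 in the labelled knockout, an astrocyte-like nucleus 0.123 and 0.0676, and an oligodendrocyte-like nucleus 0.133 and 0.0720. A CA1-like nucleus had 3.502 and 1.56. The low glial counts were thus alike across glia within a library and lower in the labelled knockout in each of these 3 types, and they are read here as background rather than expression. In the labelled knockout the class order for Gabra5 became immature dentate granule-like (169.5 CPM), then CA2-like (133.7) and deep-layer excitatory-like nuclei (133.6), these 2 with overlapping intervals, and CA3-like nuclei (115.7). Subtracting the microglia-like level left the Gabra5 ratio in CA2-like nuclei at -0.81 and in subicular excitatory-like nuclei at 0.67.

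Gabra4, the α partner of δ in granule cells, was lower in CA1-like nuclei, at 103.2 CPM in the control (99.7 to 106.7) and 53.9 in the labelled knockout (50.8 to 57.0), a log2 ratio of -0.94 (-1.03 to -0.84). The gap was -0.93 in female and -0.86 in male nuclei and passed 1.5-fold in 13 of 13 alternative settings. Deep-layer excitatory-like nuclei had 79.6 and 44.1 CPM (-0.85), with -0.79 and -1.10 in their 2 larger clusters, and again 13 of 13 settings. These classes did not overlap between libraries within counting error.

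Subicular excitatory-like nuclei had 98.5 and 64.1 CPM of Gabra4 (-0.62, interval -0.75 to -0.49), past 1.5-fold in 9 of 13 settings. CA2-like nuclei had 122.7 and 82.8 CPM (-0.57), and CA3-like nuclei 114.9 and 92.4 (-0.31), where female nuclei had -0.09 and male nuclei -0.47. In dentate granule-like nuclei, where Gabra4 was most abundant, it was 313.5 and 300.6 CPM (-0.06, interval -0.10 to -0.03), with ratios of 0.00 and -0.05 in the Bmp6 and Trpc6 clusters. Immature dentate granule-like nuclei had 125.5 and 130.2 CPM (0.05). Gabra4 was thus lower in the labelled knockout in the CA, subicular and deep-layer classes and close to level in both granule classes; the difference between classes was not tested.

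Gabra2, a subunit of many synaptic receptors, had 763.2 and 979.8 CPM in dentate granule-like nuclei (0.36, interval 0.34 to 0.38). Within the Bmp6 cluster it was 931.3 and 982.9 CPM (0.08), and within the Trpc6 cluster 728.5 and 914.1 (0.33). The cluster that held most nuclei of the labelled knockout thus had the higher Gabra2 in the control library as well. Immature dentate granule-like nuclei had 831.6 and 830.4 CPM.

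In CA1-like nuclei Gabra2 was 601.7 and 725.4 CPM (0.27), and the ratio was -0.04 with the finer clusters, in which most of these control nuclei are left out. CA3-like nuclei had 775.3 and 860.0 CPM (0.15), and subicular excitatory-like nuclei 480.2 and 624.7 (0.38). Deep-layer excitatory-like nuclei went the other way, from 125.1 to 83.2 CPM (-0.59), with -0.89 in the larger cluster and -0.08 in the other, -0.92 in female and -0.33 in male nuclei, and -0.12 when called doublets were kept. Astrocyte-like nuclei had 546.2 and 415.1 CPM (-0.40), at 12.6 times the count per nucleus of microglia-like nuclei in the control; the ratio was -0.08 when called doublets were kept.

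Gabra3, found in inhibitory and deep-layer neurons and in oligodendrocyte precursors, was near the detection floor in granule-like nuclei: 81 UMIs in the control and 67 in the labelled knockout, or 1.51 and 1.79 CPM. CA1-like nuclei had 20.8 and 15.2 CPM (-0.45, interval -0.64 to -0.26), and subicular excitatory-like nuclei 89.4 and 62.0 (-0.53). Both intervals stayed below 0, and both ratios were short of 1.5-fold. Deep-layer excitatory-like nuclei had 91.6 and 105.9 CPM (0.21), MGE inhibitory-like nuclei 117.5 and 113.8, CGE inhibitory-like nuclei 72.1 and 70.4, and oligodendrocyte precursor-like nuclei 112.4 and 104.7. Cycling progenitor-like nuclei had 67 and 81 UMIs, or 39.3 and 59.0 CPM (0.58), with -0.70 in female and 1.35 in male nuclei, where the female interval took in 0 (11 to 40 UMIs per sex and library); the difference between the sexes was not tested.

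Of the β subunits, Gabrb1 was nearly level in granule-like nuclei, at 1766 and 1871 CPM (0.08), and 992 and 1000 CPM in immature dentate granule-like nuclei. Within the immature class, a cluster led by Sema3c had 497.8 and 429.6 CPM and one led by Rasef 1724 and 1904. It had 1006 and 1235 CPM in CA1-like nuclei (0.29; -0.04 with the finer clusters), 2227 and 2929 in CA2-like nuclei (0.40), and 1432 and 1560 in CA3-like nuclei (0.12). Astrocyte-like nuclei had 4462 and 3896 CPM (-0.20, interval -0.22 to -0.17), and radial glia-like nuclei 4833 and 4714 (-0.04).

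In the named classes, the widest ratio of any subunit gene with enough counts was Gabrb1 in Cajal-Retzius-like nuclei, early-born neurons of the outer layers, 177 in the control and 234 in the labelled knockout. The class held 123 UMIs of it in the control against 533, or 117.5 CPM (97.6 to 140.1) and 404.7 (371.0 to 440.5), a log2 ratio of 1.78 (1.499 to 2.08). The control level overlapped that of microglia-like nuclei, which had 128.9 CPM (117.0 to 141.7) in the control and 96.0 in the labelled knockout. Per nucleus, the Cajal-Retzius-like count was 2.41 and 13.2 times the microglia-like count. The ratio was 2.44 with the microglia-like level subtracted. Female Cajal-Retzius-like nuclei had 109.6 and 400.5 CPM and male nuclei 74.5 and 242.0. With called doublets kept the levels were 493.8 and 667.0 CPM, a ratio of 0.43, and with a stricter filter on nuclei 72.2 and 144.1 CPM (0.99). Summed astrocyte markers in the class were 412.5 and 296.9 CPM, 2 of 8 higher, and summed MGE inhibitory markers 89.8 and 298.4 CPM, 7 of 10 higher, with CA3 markers at 303.7 and 466.2 CPM, 7 of 7 higher. Their part was not tested.

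Gabrb2, a β subunit of many synaptic receptors, was modestly lower in dentate granule-like nuclei, at 620.1 and 513.9 CPM (-0.27, interval -0.30 to -0.25). Both granule clusters had it (-0.25 and -0.20), as did female and male nuclei (-0.27 in each). CA1-like nuclei had 408.3 and 349.5 CPM (-0.22) and subicular excitatory-like nuclei 698.4 and 576.7 (-0.28), while CA3-like nuclei had 199.8 and 208.5 CPM (0.06). CA2-like nuclei went the other way, at 131.8 and 163.5 CPM (0.31), with 0.57 in female and 0.08 in male nuclei. These differences were all short of 1.5-fold.

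Gabrd, which encodes the subunit of tonic receptors in granule cells, was counted 1282 and 644 times in dentate granule-like nuclei, at 23.8 CPM (22.5 to 25.2) and 17.2 (15.9 to 18.6), a log2 ratio of -0.47. That difference was not shared by the parts of the class. Female nuclei had 17.1 and 17.4 CPM (0.03), and male nuclei 27.8 and 16.2 (-0.77). The Bmp6 cluster had 17.8 and 17.3 CPM (-0.04), and the Trpc6 cluster 25.1 and 14.3 (-0.78). The last level rests on few Gabrd UMIs, since the labelled knockout had only 147 nuclei and 1678130 UMIs of all genes in the Trpc6 cluster. The control level in male nuclei, from 2 mice, stood above the other 3 values, which lay between 16.2 and 17.4 CPM. In CA3-like nuclei the gene had 11 and 12 UMIs, a count per nucleus 0.805 and 1.14 times that of microglia-like nuclei, and in CA1-like nuclei 5.44 and 3.53 CPM.

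**Figure D3:**
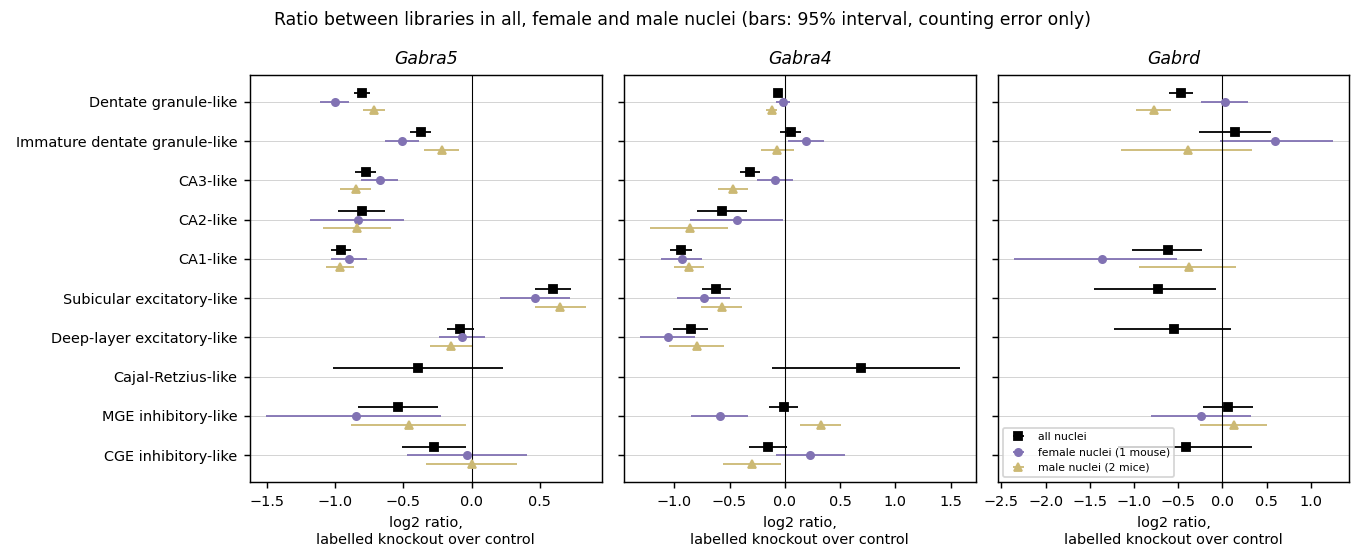
Log2 ratio of the labelled knockout over the control for Gabra5, Gabra4 and Gabrd by class, in all nuclei (black squares), female nuclei (purple circles) and male nuclei (yellow triangles), with 95% counting intervals; points with fewer than 50 UMIs in both libraries together are left out. Gabra5 lies left of 0 for both sexes in CA1-like nuclei (-0.90 and -0.96) and right of 0 in subicular excitatory-like nuclei, whereas Gabrd in dentate granule-like nuclei is at 0.03 in female and -0.77 in male nuclei.

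Inhibitory-like nuclei, a lineage in which Emx1-Cre is mostly silent, had similar levels of 6 of the genes in both libraries. In both inhibitory classes combined, 1037 and 1062 nuclei, Gabra2 was 271.9 and 267.6 CPM, Gabra3 101.2 and 96.7, and Gabra4 86.1 and 82.4. Gabrb1 had 547.4 and 547.5 CPM, Gabrb2 615.0 and 589.8, and Gabrd 14.4 and 13.8. These levels pool the sexes: the Gabrb1 log2 ratio was -0.24 in female and 0.10 in male nuclei. In MGE inhibitory-like nuclei Gabra4 (-0.59 and 0.32) and Gabrb2 (-0.37 and 0.09) also had opposite signs. Over all nuclei of the combined class only Gabra5 differed by more than 0.1 on the log2 scale. It had 32.9 and 26.1 CPM (-0.33, interval -0.51 to -0.15), and 4.63% of all genes with enough counts were at least as far from 0. Its gap was wider in MGE inhibitory-like nuclei, at 22.7 and 15.6 CPM (-0.54, interval -0.83 to -0.25), where 1.12% of genes were as far, than in CGE inhibitory-like nuclei, at 51.3 and 42.3 CPM (-0.28); the difference between these classes was not tested. With nuclei thinned to 2000 UMIs the ratio was -0.06 in the combined class and 0.10 in MGE inhibitory-like nuclei. On average an MGE inhibitory-like nucleus had 0.430 and 0.258 Gabra5 UMIs, or 3.36 and 3.96 times the count of a microglia-like nucleus. For CGE inhibitory-like nuclei it was 6.90 and 9.09 times. The microglia-like count was itself lower in the labelled knockout, at 0.128 and 0.0651.

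Granule cells are born after birth as well as before, so young and mature granule-like nuclei could be compared within each library. In the control, Gabrd (6.81 against 23.8 CPM), Gabra4 (a log2 ratio of -1.32), Gabrb2 (-1.22) and Gabrb1 (-0.83) were lower in immature than in mature dentate granule-like nuclei, while Gabra5 (0.44) and Gabra2 (0.12) were higher. The immature class pooled unlike clusters. In the control, Gabrb1 had 497.8 CPM in the one led by Sema3c and 1724 in the one led by Rasef, against 1766 in mature nuclei. Gabrb2 had 139.8 and 451.5 CPM in these clusters, against 620.1. In the labelled knockout the same ratios were -1.19 for Gabrd, -1.21 for Gabra4, -0.88 for Gabrb2, -0.90 for Gabrb1, 0.88 for Gabra5 and -0.24 for Gabra2. Gabra2 therefore changed side, as its level over all mature nuclei was higher in the labelled knockout. In the control it had 931.3 CPM in the mature Bmp6 cluster and 728.5 in the Trpc6 cluster, against 831.6 in immature nuclei. The labelled knockout had 982.9 and 914.1, against 830.4. The libraries held unlike shares of these mature clusters, and the part of this was not tested. Gabra5 was more abundant in immature nuclei in both libraries. These ratios use the same nuclei as the comparison of the libraries and are no separate evidence of it.

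**Figure D4:**
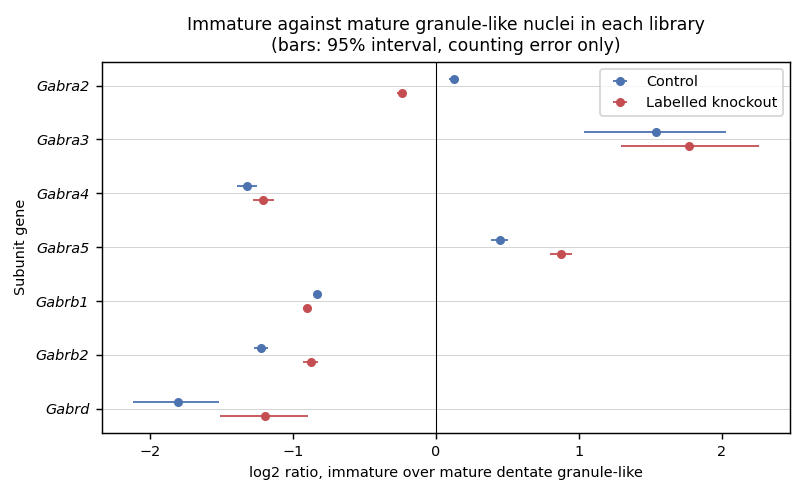
Log2 ratio of immature over mature dentate granule-like nuclei for each subunit gene, blue for the control and red for the labelled knockout, with 95% counting intervals. Gabrd, Gabra4, Gabrb1 and Gabrb2 lie left of 0 in both libraries, Gabra5 and Gabra3 right of 0, and Gabra2 on opposite sides (0.12 and -0.24).

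Of 12 other GABA-A subunit genes, 4 had enough counts in dentate granule-like nuclei, 1 higher and 3 lower in the labelled knockout. Their median log2 ratio was -0.36, against 0.01 over all genes. In CA3-like nuclei 4 had enough counts, 0 higher and 4 lower, with a median of -0.27 against 0.06. CA1-like nuclei had 2 higher and 2 lower, with a median of -0.03 against 0.09. The 1 higher gene in dentate granule-like nuclei passed 2-fold, as did 3.38% of all genes there. Gabrg3, a γ subunit and neighbour of Gabra5, had 147.3 and 317.8 CPM (1.11), while in CA3-like nuclei it had 20.8 and 13.8 (-0.59).

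The other lists held genes that anchor, move or supply the receptor, and GABA-B receptor genes. In dentate granule-like nuclei, 14 of 15 anchoring and accessory genes had enough counts, with a median log2 ratio of 0.02 (7 higher, 7 lower), 11 of 12 trafficking genes had -0.08 (4 higher, 7 lower), 6 of 6 chloride genes -0.08 (2 higher, 4 lower) and 5 of 5 GABA-B genes 0.00 (3 higher, 2 lower), against 0.01 over all genes. None of these passed 2-fold there. Of the GABA uptake and breakdown genes with enough counts, 4 of 4 were higher in the labelled knockout in dentate granule-like nuclei (median 0.72; 2 past 2-fold, against 3.38% of all genes), 3 of 3 in CA3-like nuclei (median 0.70; 1 past 2-fold, against 2.02%) and 3 of 3 in CA1-like nuclei (median 0.53; 0 past 2-fold, against 4.16%). In other classes counts went both ways: 3 were higher and 0 lower in deep-layer excitatory-like nuclei, 4 higher and 0 lower in oligodendrocyte precursor-like and in oligodendrocyte-like nuclei, 1 was higher and 1 lower in CA2-like and in subicular excitatory-like nuclei, 1 higher and 3 lower in CGE inhibitory-like nuclei, 3 higher and 1 lower in MGE inhibitory-like nuclei, and 0 higher and 2 lower in Cajal-Retzius-like nuclei. Slc6a11, a GABA transporter gene, was past 2-fold in dentate granule-like nuclei, with 13.9 and 34.3 CPM (1.30), and in CA3-like nuclei, with 8.63 and 31.8 (1.88); CA1-like nuclei had 18.3 and 35.1 CPM (0.94). Summed astrocyte markers in dentate granule-like nuclei were 1425 and 1239 CPM, 2 of 8 higher, and in CA3-like nuclei 446.4 and 414.3 CPM, 3 of 8 higher. In CA1-like nuclei Plcl1, which encodes a partner of β subunits, had 52.8 and 192.8 CPM (1.87), and Hap1, which links receptors to transport, 11.5 and 23.5 (1.03). Gphn, the gene of the synaptic scaffold gephyrin, had 853.2 and 770.3 CPM in dentate granule-like nuclei (-0.15), while CA1-like nuclei had 715.9 and 846.7 (0.24).

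The genes whose levels followed each subunit most closely were sought over 34 points, 17 classes in 2 libraries, with Pearson's r as a description; points of 1 library share its depth. Gabra5 was followed most closely by Camkv (0.91) and Camk2b (0.90), kinase-family genes of excitatory neurons, and Gabra4 by Lgi1 (0.93), which encodes a secreted synaptic protein. Gabrd followed Calb1 (0.90) and Trpc6 (0.83), both used as granule markers here. Gabra2 followed Nr3c2 (0.89), which encodes the mineralocorticoid receptor, Gabra3 followed Elfn1 (0.93), Gabrb1 followed Trim9 (0.91) and Gabrb2 followed Glt1d1 (0.95). Among the subunits themselves the highest r was 0.84, between Gabra4 and Gabrb1, and Gabra3 had an r between -0.15 and 0.50 with the others.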

How the data were processed

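Single-nucleus RNA was measured in 2 libraries, 1 per group. The authors deposited raw UMI counts per gene and nucleus, made with Cell Ranger 8.0.1 and the mm39 build, per the submitters' processing notes; the values are whole numbers with no normalization visible in them. The members and gene lists were chosen with earlier results of these data known.

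Nuclei with at least 500 genes and at most 5% mitochondrial UMIs were kept, and doublets called with scanpy 1.11.5 (Scrublet, expected rate 0.1) were left out (12.7% and 10.9%). Clusters came from 3000 variable genes, without the subunit and pathway genes, 30 components, 15 neighbours and Leiden resolution 1. Of 48 clusters, 36 were named from fixed markers. A cluster stayed unnamed with fewer than 3 raised markers, a mean log2 fold under 0.5 (1 with no own marker among its 10 leading genes), more leading genes of another class, low depth with no own leading gene, or fewer than 10 nuclei in a library; the last rule and the value of 1 were set after clusters were seen. Unnamed clusters held 11.7% of control nuclei and 13.6% of the labelled knockout. Rebuilt names may differ from the study's. Sex was called per nucleus: female for 2 or more UMIs of Xist and 0 of 4 Y-linked genes, male for 1 or more of the latter and 0 of Xist.

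UMIs were summed per class and library where both had at least 100 nuclei, and 0.5 UMI was added to each sum for log2 ratios. Intervals are exact Poisson (levels), exact conditional binomial (ratios) and Clopper-Pearson (shares). The size rule and intervals were tested on simulated data. Named outside the subunits, by rule, were Cic, Gphn, up to 6 pathway genes per class past 2-fold, and the 2 genes with the highest r per subunit; some genes the rule names are not reported here. Marker genes and leading genes of clusters are named where values of theirs bear on a result. The reference annotation was GENCODE M21 for GRCm38, which held 95.0% of the gene identifiers and served only for gene order and overlap. Alternatives changed doublets, filters, clustering, sex, depth, scaling and free RNA.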

Additional observations from a re-analysis of the deposited data

Results flagged for a closer look

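In inhibitory classes the ratio of the labelled knockout over the control had opposite signs in female nuclei (1 mouse per library) and male nuclei (2 mice), with both counting intervals clear of 0; the difference itself was not tested, and each side rests on 1 or 2 mice. In MGE inhibitory-like nuclei Gabra4 had -0.59 in female and 0.32 in male nuclei, Gabrb1 -0.38 and 0.14, and Gabrb2 -0.37 and 0.0945 on the log2 scale. In both inhibitory classes combined Gabrb1 had -0.24 and 0.10.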

How the results depend on the processing

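Each ratio was computed under up to 13 alternatives, 12 planned and 1, putting back clusters with fewer than 10 nuclei in a library, chosen after seeing the data. Gabra5 in CA1-like, CA3-like and dentate granule-like nuclei, and Gabra4 in CA1-like and deep-layer excitatory-like nuclei, passed 1.5-fold with the same sign in all 13. The count of subunit genes past 1.5-fold was recomputed in the dentate granule-like, immature dentate granule-like, CA3-like, CA1-like and combined inhibitory-like nuclei. It was 2 in place of 1 in dentate granule-like nuclei with male nuclei only (Gabra5 and Gabrd), and 1 in place of 0 in immature dentate granule-like nuclei with female nuclei only (Gabrd, 6.84 and 10.4 CPM, with a counting interval that took in 0); fewer nuclei entered both. Single genes crossed 1.5-fold in other classes: Gabra4 in CA2-like nuclei in 6 of 13 (-0.86 with male nuclei only), and in MGE inhibitory-like nuclei Gabra5 in 3 of 13 (-0.84 with female nuclei only) and Gabra4 with female nuclei only (-0.59). The Gabra5 ratio in oligodendrocyte-like nuclei was -0.95 and became 0.32 with the microglia-like level subtracted, which leaves few counts. With the 28 nuclei of a cluster found only in the control put back, the Gabrb1 ratio in microglia-like nuclei went from -0.42 to -1.403; with called doublets kept it was 0.13. No paired analysis was possible because each group is 1 library. Gabrd outside dentate granule-like, MGE inhibitory-like and combined inhibitory-like nuclei, and Gabra3 in both granule classes and CA3-like nuclei, were under 10 CPM; in several of these classes, among them Gabra3 in dentate granule-like nuclei (81 and 67 UMIs), they passed the minimum of 50 UMIs, so the low level and not the depth kept them out.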

Other observations

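Some clusters could not be named and stand outside the classes above; their leading genes are given instead. In a cluster led by Gm29771, Cd36 and Dcn, 668 control nuclei and 602 of the labelled knockout, Gabra4 had 121.5 and 68.7 CPM (log2 ratio -0.82) and Gabra5 132.5 and 88.9 (-0.57). In a cluster led by Gm12130 and Gpc3, 311 and 440 nuclei, Gabra4 had 78.9 and 31.2 CPM (-1.34) and Gabra5 182.4 and 129.4 (-0.49). In a cluster led by Npsr1 and Tecta, 376 and 437 nuclei, Gabra5 was near level at 109.3 and 114.3 CPM (0.06), and in one led by Gm13912 and Rxfp1, 87 and 76 nuclei, it was higher in the labelled knockout at 43.0 and 94.4 CPM (1.13).

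A cluster led by Hspa8, Vgf and Scg2 held 225 control nuclei and 110 of the labelled knockout. Its other leading genes were Atp6v0c, Tubb5, Ubb, Rer1, Gapdh, Calm3 and Chga. These nuclei were shallow, with medians of 1162 and 967.5 UMIs, against 9790 and 8766 over all nuclei used. Gabra5 had 77 UMIs there in the control and 6 in the labelled knockout, or 185.7 and 43.6 CPM (-1.98, counting interval -3.58 to -0.90). Microglia-like nuclei, which should lack the gene, had 57.3 and 36.1 CPM.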
